A study of Mus musculus with 11 samples.

Results

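Fam205a2, Gm20878 and Gm21586 are 3 of the 24411 genes in a count table of mouse testis RNA, and they lie in a repeated stretch of chromosome 4 near the gene Aco1. They were chosen by their measured counts, which were lower in testes without iron regulatory protein 1 (Irp1) than in wild-type (WT) testes, so their values in that comparison are a description and no test of them is given. The table held 4 WT mice, 4 Irp1-/- mice (global loss of Aco1, the gene of Irp1) and 3 Irp2-/- mice (global loss of Ireb2, the gene of Irp2), all 20 weeks old and otherwise not treated. WT is given as C57Bl/6J. The Irp1-/- line goes back to founders with the Aco1tm1Roua allele on that background, and its WT littermates came from crosses of heterozygous mice. The origin of the Irp2-/- mice is not given in the sources used here. RNA was taken from the whole testis after its capsule was removed, so a change in cell numbers and a change in RNA per cell cannot be told apart. All p-values measure the spread between these samples.

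Fam205a2 belongs to the FAM205 family, which is related to the SPATA31 proteins of developing sperm cells. The genes called Ccl27 encode a chemokine, a small secreted protein that attracts immune cells, and the mouse has several copies and partial copies of them close to copies of the interleukin 11 receptor gene Il11ra, the chemokine genes Ccl19 and Ccl21, and Fam205a. Gm20878 and Gm21586 are predicted genes that carry Ccl27 sequence. Irp1 and Irp2 are RNA-binding proteins that control the use of messenger RNAs of iron metabolism when iron is scarce.

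In the mm10 (GRCm38) genome Gm20878 spans chr4:41941634-41942633, Gm21586 spans chr4:42438686-42448653 and Fam205a2 spans chr4:42522437-42537578, which places them 1.74, 2.24 and 2.32 Mb beyond the end of Aco1 (chr4:40143265-40199009). All 3 are annotated as protein-coding. Gm20878 and Gm21586 are on the plus strand and Fam205a2 is on the minus strand. The copies are close enough in sequence that a sequenced read of 50 bases can often be placed on more than one of them. The GENCODE transcript of Fam205a2 (3927 bases) was identical to that of Fam205a3 and was held whole in that of Fam205a4, and neither of these genes was counted under its own name. Against Fam205a1, at chr4:42848067-42859820, the transcript had 45 differences (98.86% identity), and 70.2% of its 50-base stretches also occurred in Fam205a1. The coding stretch of 150 bases without a gap that has the most substitutions between the copies, 6, is shown with the differing bases in capitals (Fam205a2 at chr4:42525918-42526067, Fam205a1 at chr4:42851566-42851715, both minus strand, from GENCODE transcripts on GRCm38). A read that covers none of these positions cannot be told apart by its own bases, even here. The reads were paired, so its mate could still cover a differing base.
Fam205a2: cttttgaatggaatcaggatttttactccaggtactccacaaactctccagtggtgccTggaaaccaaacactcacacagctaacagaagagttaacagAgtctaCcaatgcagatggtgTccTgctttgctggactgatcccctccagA
Fam205a1: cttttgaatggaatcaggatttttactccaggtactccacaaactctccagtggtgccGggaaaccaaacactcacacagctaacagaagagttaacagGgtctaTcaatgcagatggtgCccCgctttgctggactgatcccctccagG

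The transcript of Gm21586 (264 bases) was identical to a transcript of Gm20878 and to that of Gm21953, an alias of which, Gm13308, is a row of the table. That row had only 0 to 4 counts in WT and in Irp1-/- samples and 4 to 20 in Irp2-/- samples. The Gm21586 transcript differed at 2 positions from a transcript of Ccl27a, the Ccl27 gene at the edge of the repeated stretch. Each of its 215 stretches of 50 bases occurred in Gm20878, while 13.1% of those of the longer Gm20878 occurred in Gm21586. The Gm21586 sequence, from exons within chr4:42439378-42439966 of GRCm38 on the plus strand, is shown with the 2 bases that differ from Ccl27a in capitals.
Gm21586: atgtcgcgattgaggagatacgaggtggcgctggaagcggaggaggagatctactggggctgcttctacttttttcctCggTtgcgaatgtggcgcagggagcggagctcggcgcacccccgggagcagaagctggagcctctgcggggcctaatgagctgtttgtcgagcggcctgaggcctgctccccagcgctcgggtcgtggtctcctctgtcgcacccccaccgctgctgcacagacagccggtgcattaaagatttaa

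The RefSeq promoters (250 bases before to 50 bases after the annotated start, GRCm38.p6) of Gm20878 and Gm21586 were identical over 300 bases. The Gm20878 promoter (chr4:41941384-41941683, plus strand) and that of Ccl27a (chr4:41774127-41774426, minus strand) aligned over 293 bases with 5 substitutions and 1 base that only Gm20878 has. They are shown because both promoters are nearly the same while the counts of the genes were not alike among genotypes, with the differing bases in capitals.
Gm20878: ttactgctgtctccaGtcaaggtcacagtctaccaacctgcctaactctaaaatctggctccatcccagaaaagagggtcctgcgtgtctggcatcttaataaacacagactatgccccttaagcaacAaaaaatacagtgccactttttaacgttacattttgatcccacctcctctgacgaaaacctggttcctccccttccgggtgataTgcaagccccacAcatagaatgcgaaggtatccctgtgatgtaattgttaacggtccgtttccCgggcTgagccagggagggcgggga
Ccl27a: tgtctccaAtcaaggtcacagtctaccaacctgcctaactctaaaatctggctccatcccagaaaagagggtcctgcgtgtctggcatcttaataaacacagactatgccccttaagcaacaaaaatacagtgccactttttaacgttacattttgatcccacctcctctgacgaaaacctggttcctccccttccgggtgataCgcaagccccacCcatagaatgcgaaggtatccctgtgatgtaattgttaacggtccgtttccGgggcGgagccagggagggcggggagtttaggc

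Letters were searched on both strands of all 32851 RefSeq promoters. TGACG was in these promoters of Gm20878, Gm21586 and Ccl27a and in 20.8% of all promoters. GGGCGG was in the same promoters and in 35.7% of all. CCAAT was in this promoter of Ccl27a and in 37.4% of all, but not in those of Gm20878 and Gm21586. TATAAA, in 13.6% of all, was in none of these 3. The longer motif TGACGTCA, which contains TGACG and was in 1.80% of all promoters, was in none of the promoters of Gm20878, Gm21586, Ccl27a, Fam205a2, Fam205a1 and Fam205c that were examined.

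The total count per sample was 15902473 to 22451417, and levels are given as CPM (counts scaled to a common library size) after TMM normalisation. The germ cell lists (spermatogonia, spermatocytes, round and elongating spermatids, 7 genes each) held no gene without counts, and genes of epididymis summed to at most 0.377 CPM. Aco1 had 11.8 ± 1.36 CPM (SD, n = 4) in WT and 8.58 ± 0.622 CPM (SD, n = 4) in Irp1-/- testes, with no overlap between the groups (log2 fold change -0.45, standard error 0.098, adjusted p = 0.0158, edgeR). Ireb2 had 139.6 ± 5.84 CPM (SD, n = 4) in WT and 62.2 ± 0.514 CPM (SD, n = 3) in Irp2-/- testes (log2 fold change -1.16, standard error 0.050, adjusted p = 2.8e-13, edgeR). Transcripts of both targeted genes were thus lower, but still counted, in the mice labelled as lacking them.

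Fam205a2 had 107.5, 103.3, 107.0 and 96.5 CPM in the 4 WT testes. The 4 Irp1-/- testes had 52.3, 61.7, 60.2 and 43.3 CPM. The 3 Irp2-/- testes had 89.3, 104.2 and 117.3 CPM. Every Irp1-/- sample lay below every sample of both other genotypes, and the Irp2-/- samples lay on both sides of WT. The mean was 103.6 ± 5.09 CPM (SD, n = 4) in WT, 54.4 ± 8.46 CPM (SD, n = 4) in Irp1-/-, and in the Irp2-/- group 103.6 ± 14.0 CPM (SD, n = 3), so that Irp1-/- testes held 52.5% of the WT mean. The log2 fold change of Irp1-/- against WT was -0.92 (standard error 0.103). Between samples of one genotype, Fam205a2 was most even in WT, where its coefficient of variation was 4.91%, against 15.6% in Irp1-/- and 13.6% in Irp2-/- testes. Irp1-/- replicate 7, at 43.3 CPM, had the lowest level.

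Gm20878 had 42.3, 39.5, 37.5 and 42.8 CPM in WT, and 23.1, 25.5, 25.5 and 25.2 CPM in Irp1-/- testes. In the Irp2-/- testes its levels were 42.3, 36.7 and 37.6 CPM. The Irp1-/- samples again lay apart from all others, while those of WT and Irp2-/- overlapped. Its mean was 40.5 ± 2.47 CPM (SD, n = 4) in WT and 24.8 ± 1.18 CPM (SD, n = 4) in Irp1-/- testes, or 61.2% of WT, with a log2 fold change of -0.71 (standard error 0.058). In Irp2-/- testes it was 38.8 ± 2.99 CPM (SD, n = 3).

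Gm21586 had 42.9, 39.6, 37.2 and 40.9 CPM in WT, and 22.8, 21.04, 24.5 and 25.6 CPM in Irp1-/- testes. Its Irp2-/- levels were 42.5, 35.1 and 37.3 CPM. As for the other pair of genes, only the Irp1-/- samples stood apart. The means were 40.2 ± 2.38 CPM (SD, n = 4) in WT, 23.5 ± 2.01 CPM (SD, n = 4) in Irp1-/-, and for Irp2-/- testes 38.3 ± 3.80 CPM (SD, n = 3). Irp1-/- testes held 58.5% of the WT mean, a log2 fold change of -0.78 (standard error 0.063). For all 3 of the genes every Irp1-/- sample was below every WT sample, as was so for 3.42% of the 16002 genes tested, but the genes were chosen for this difference.

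**Figure D1:**
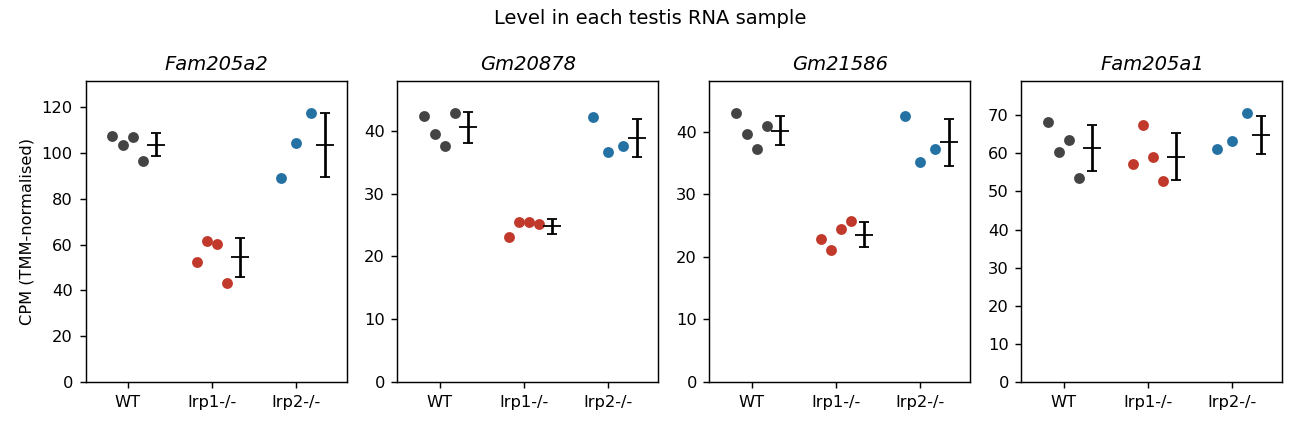
CPM of Fam205a2, Gm20878, Gm21586 and the near copy Fam205a1 in each testis RNA sample (points), with the mean and SD of each genotype beside them (4 WT, 4 Irp1-/- and 3 Irp2-/- mice). The Irp1-/- points of Fam205a2 lie between 43.3 and 61.7 CPM, below all WT points (96.5 to 107.5 CPM), whereas the genotypes overlap for Fam205a1.

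The Irp2-/- samples took no part in the choice of the genes, but the WT samples did, so the test of Irp2-/- against WT is not independent of that choice. None of the 3 was called (adjusted p under 0.05 in edgeR's quasi-likelihood test), where 1.21% of 16154 genes were, none of them had an unadjusted p under 0.05, and DESeq2 called none. The log2 difference of Fam205a2 was 0.00098 (standard error 0.076, 95% interval -0.16 to 0.16, adjusted p = 0.999, edgeR). Gm20878 differed by -0.06 (95% interval -0.19 to 0.07, adjusted p = 0.890, edgeR). Gm21586 differed by -0.07 (95% interval -0.21 to 0.07, adjusted p = 0.871, edgeR). The lower limit of each interval lay above the log2 fold change of that gene in Irp1-/- against WT. The genes were chosen for that Irp1-/- difference, so no test is drawn from this. Set directly against Irp2-/- samples, the Irp1-/- samples were lower by log2 fold changes of -0.92 for Fam205a2 (standard error 0.148), -0.65 for Gm20878 (standard error 0.066) and -0.71 for Gm21586 (standard error 0.076), given without a test since the Irp1-/- samples served to choose the genes. No Irp1-/- sample overlapped with an Irp2-/- sample for any of the 3, as was so in this direction for 7.67% of 16281 genes.

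Fam205a1, which shares most of its sequence with Fam205a2, showed no such separation of the genotypes. It had 68.2, 60.3, 63.5 and 53.6 CPM in WT and 57.1, 67.4, 59.2 and 52.7 CPM in Irp1-/- testes. Those of Irp2-/- mice had 61.0, 63.2 and 70.5 CPM. The genotypes overlapped throughout, and on the log2 scale Irp1-/- differed from WT by -0.05 (standard error 0.080, 95% interval -0.23 to 0.12, adjusted p = 0.867, edgeR). The ratio of Fam205a2 to Fam205a1 counts within a sample, which does not depend on library size, was 1.58 to 1.80 in WT and 1.46 to 1.66 in Irp2-/- testes. In Irp1-/- testes it was 0.821 to 1.02. The ratio is one of raw counts and not of levels per length. It shows an unequal change of the pair between genotypes, and reads that both genes share could have been counted on either.

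Gm20878 and Gm21586 carried nearly the same count in every sample. Their counts were 756 and 767 in WT replicate 1, 401 and 408 in Irp1-/- replicate 7, and 949 and 954 in Irp2-/- replicate 1. The ratio of Gm21586 to Gm20878 was 0.955 to 1.01 in WT, 0.825 to 1.02 in Irp1-/- and 0.955 to 1.01 in Irp2-/- testes. The lowest of these ratios was that of Irp1-/- replicate 2, with 468 counts of Gm21586 and 567 of Gm20878. Since the transcript of Gm21586 is contained in Gm20878, these rows are not separate measurements of a change. Summed, the pair had 80.7 ± 4.72 CPM (SD, n = 4) in WT, 48.3 ± 2.48 CPM (SD, n = 4) in Irp1-/-, and for Irp2-/- testes 77.1 ± 6.77 CPM (SD, n = 3). Against WT the summed pair changed by -0.74 on the log2 scale (standard error 0.050) in Irp1-/- and by -0.06 (standard error 0.060) in Irp2-/- testes. All 3 genes as 1 row gave -0.84 (standard error 0.046) and -0.03 (standard error 0.048). With Fam205a1 added to that row, the Irp1-/- difference was -0.60 (standard error 0.048).

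**Figure D2:**
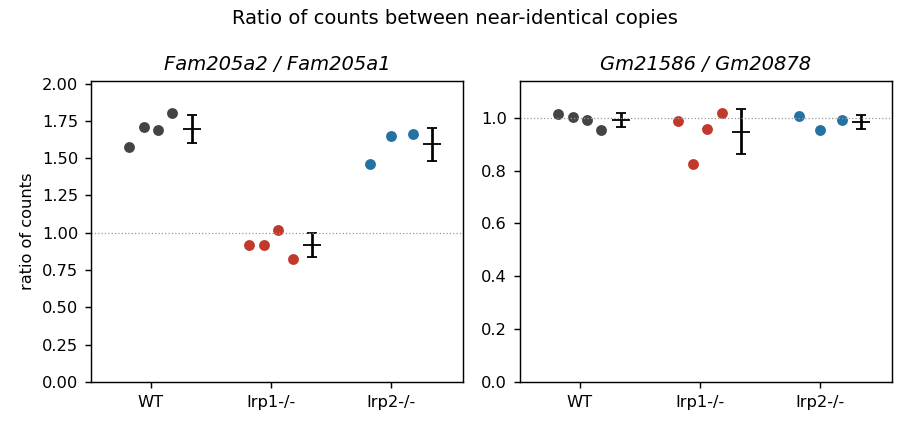
Ratio of counts within each sample for 2 pairs of near copies, with points for samples, bars for the mean and SD of a genotype and a dotted line at 1. Fam205a2 to Fam205a1 was 1.58 to 1.80 in WT but 0.821 to 1.02 in Irp1-/- testes, whereas Gm21586 to Gm20878 stayed between 0.825 and 1.02 in all genotypes.

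Ccl27a, the intact Ccl27 gene whose transcripts share stretches with both predicted genes, was not lower either. Its levels were 78.3 to 90.0 CPM in WT, 88.2 to 93.2 CPM in Irp1-/- and 78.7 to 90.7 CPM in Irp2-/- testes. The log2 fold change of Irp1-/- against WT was 0.09 (standard error 0.045, adjusted p = 0.451, edgeR). The other Ccl27 copies were counted unevenly. Ccl27b shares 98.1% of its 50-base stretches with the predicted copy Gm13306, and in 6 of the 11 samples one of them had 0 counts. In WT replicates 1 to 4 Ccl27b had 0, 177, 0 and 207 counts, and Gm13306 had 314, 33, 331 and 201. In Irp1-/- replicates 1, 2, 6 and 7 Ccl27b had 32, 0, 153 and 0 counts, and Gm13306 had 0, 37, 65 and 34. In Irp2-/- replicates 1 to 3 Ccl27b had 500, 342 and 0 counts, and Gm13306 had 42, 52 and 283. Where one copy had many counts the other often had few, so single values of either cannot be read alone.

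Added together, Ccl27b and Gm13306 had 210 to 408 counts in WT, 283 to 542 in Irp2-/- and 32, 37, 218 and 34 in Irp1-/- testes. Irp1-/- replicate 6, with 218 counts, stood apart from the other Irp1-/- samples and at 10.9 CPM was still below the lowest WT sample (13.05 CPM). The summed log2 fold change against WT was -2.13 (standard error 0.616) in Irp1-/- and 0.13 (standard error 0.237) in Irp2-/- testes. With 1 sample left out, the Irp1-/- value was between -3.32 (without Irp1-/- replicate 6) and -1.83 (without Irp1-/- replicate 2). This sum was formed after the values were seen and is given without a test. As single rows neither copy was called in Irp1-/- against WT (Gm13306, log2 fold change -2.83, standard error 0.872, adjusted p = 0.272, edgeR; Ccl27b, -1.23, standard error 1.58, adjusted p = 0.834).

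**Figure D3:**
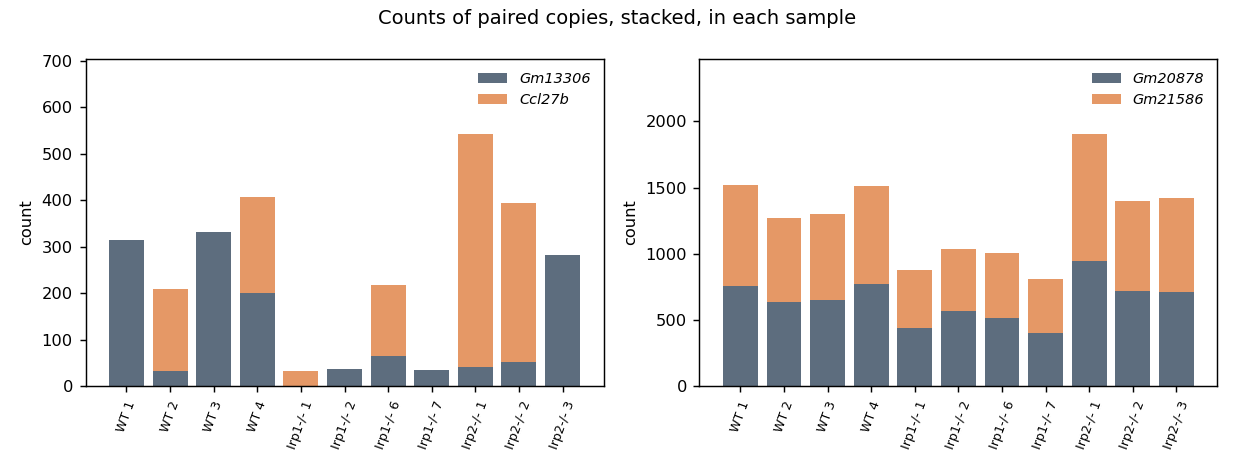
Counts in each sample of 2 pairs of near copies, stacked (left, Gm13306 and Ccl27b; right, Gm20878 and Gm21586), by genotype and replicate number. The counts of the first pair move between the copies from sample to sample while their sum is 210 to 408 in WT and 32 to 218 in Irp1-/- testes, whereas the second pair is shared out nearly evenly.

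The copies of the interleukin 11 receptor gene also shared sequence. Each of the 1250 stretches of 50 bases in Il11ra2 occurred in the predicted copy Gm13305. Il11ra2 had 0 counts in 7 of the 11 samples, but unlike Gm13306, Gm13305 was counted in every sample. Gm13305 had 5.77, 2.92, 5.63 and 6.36 CPM in WT, 2.72, 2.97, 3.59 and 1.89 CPM in Irp1-/- and 5.16, 7.18 and 6.89 CPM in Irp2-/- testes. Its Irp1-/- samples overlapped with WT through WT replicate 2 but lay below all Irp2-/- samples. Gm13305 did not pass the test against WT (log2 fold change -0.88, standard error 0.220, adjusted p = 0.083, edgeR), though DESeq2 called it (adjusted p = 0.0113) and so did edgeR without WT replicate 2 (log2 fold change -1.06, adjusted p = 5.5e-04). It was lower in Irp1-/- than in Irp2-/- testes (log2 fold change -1.17, standard error 0.172, adjusted p = 1.8e-04, edgeR). Summed with Il11ra2 the log2 difference from WT was -0.74 (standard error 0.393) in Irp1-/- testes. With 1 sample left out it was between -0.95 (without WT replicate 2) and -0.47 (without WT replicate 3). Il11ra1, the main receptor gene outside the repeats, had 6.20 ± 0.349 CPM (SD, n = 4) in WT and 6.96 ± 0.771 CPM (SD, n = 4) in Irp1-/- testes (adjusted p = 0.606, edgeR).

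The remaining copies had few counts. Ccl21b, a chemokine of lymphoid tissue, had 9, 11, 14 and 14 counts in WT and 0, 2, 0 and 4 in Irp1-/- testes, and the Irp2-/- testes had 20, 0 and 7. It was below the filter on low counts in Irp1-/- against WT, and the same comparison without that filter called it lower (log2 fold change -3.04, adjusted p = 0.00119, edgeR). Each of its 353 stretches of 50 bases also occurred in Gm13304. That copy had 6, 0, 2 and 0 counts in Irp1-/- replicates 1, 2, 6 and 7 and 0 in every WT sample. Ccl21b therefore cannot be read alone. Ccl21a, near Fam205a1, ran the other way, with 0 to 2 counts in WT and 5 to 9 in Irp1-/- testes, and 71.7% of the 50-base stretches of Ccl21b occur in it. Ccl19 had 1 to 13 counts in all samples. The pseudogene Gm3893 had 17.4 to 20.5 CPM in WT and 12.6 to 17.4 CPM in Irp1-/- testes (log2 fold change -0.31, standard error 0.090, adjusted p = 0.109, edgeR).

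In the window of chromosome 4 from 1110017D15Rik to Unc13b the table had 36 rows besides the 3 genes, of which 9 had a mean under 1 CPM and 2 had 0 counts in every sample. A further 39 annotated genes there had no row under their current symbol. Among them is Ccl21d, an older symbol of which, Gm21541, is a row. In Irp1-/- against WT, 27 of the 36 rows were tested and edgeR called 0 of them, where 1.02% of all genes were called. Of these rows 6 had an unadjusted p under 0.05, as had 1941 of all 16002 genes tested, and DESeq2 called Gm13305. Their median log2 fold change was -0.02, against -0.00079 over all genes tested. In Irp2-/- against WT 0 of 28 rows were called, by edgeR as by DESeq2, with 3 at an unadjusted p under 0.05, as were 1522 of all 16154 genes. In Irp1-/- against Irp2-/- edgeR called 2 of 28, both lower, where 4.69% of all genes were called and 1.76% were called lower. One was Gm13305, and the other was Fam219aos (log2 fold change -0.35, standard error 0.081, adjusted p = 0.0128, edgeR), an antisense RNA that overlaps Fam219a. Fam219aos was not called without Irp2-/- replicate 3 or with the replicate block. Whether strand was used in counting is not stated, so reads of that pair may not be told apart.

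By position, all 7 tested rows that start between Ccl27a and Fam205a1, the 3 genes among them, had a log2 fold change below 0 in Irp1-/- against WT. The other 4 were Gm3893, Gm13306, Gm13305 and Ccl27b, with values of -0.31 to -2.83. EdgeR called none of these 4 with all samples, though DESeq2 called Gm13305, as did edgeR without WT replicate 2, and the fit with a replicate block called Gm3893. That last fit compares these genotypes only through replicates 1 and 2, the numbers both have. The interval held 15 rows, of which 8 had too few counts to be tested. Among the untested rows Ccl21a ran the other way, with 0.0875 ± 0.0586 CPM (SD, n = 4) in WT and 0.370 ± 0.148 CPM (SD, n = 4) in Irp1-/- testes. Of the 23 tested rows in the rest of the window 10 were below 0 and 13 above, within -0.19 to 0.45. In Irp2-/- against WT 4 of 8 rows between Ccl27a and Fam205a1 were below 0. These limits were drawn after the values were seen, rows that share reads are not independent, and no test was made.

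**Figure D4:**
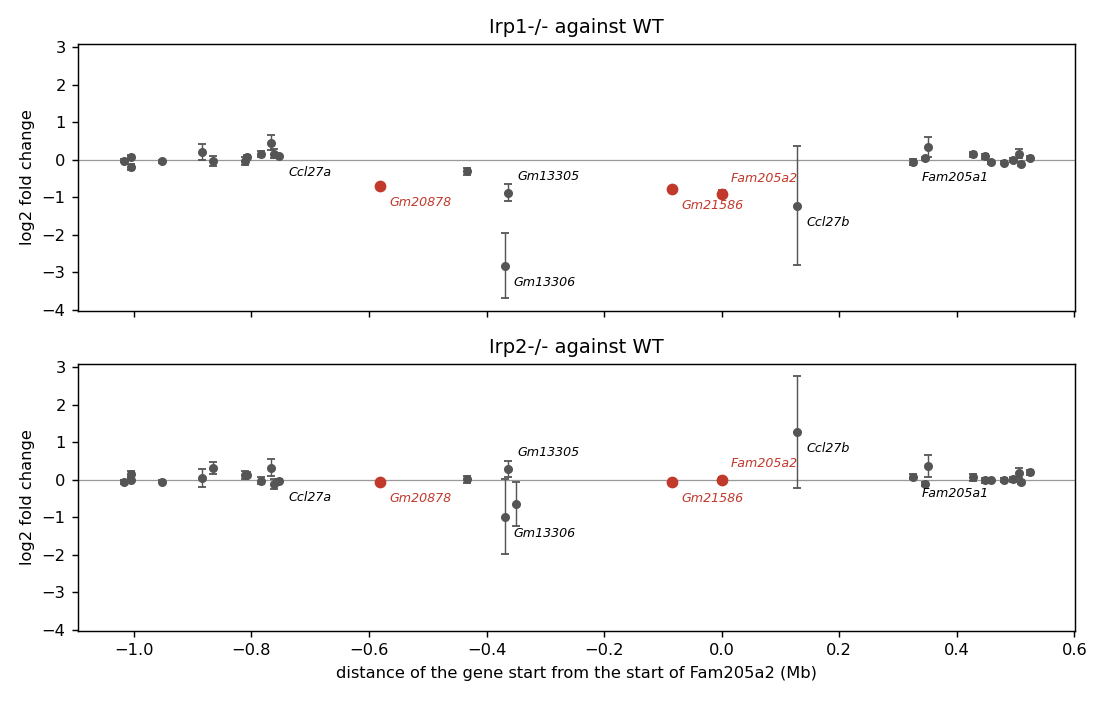
Log2 fold change (points, bars ± 1 standard error) of each tested gene of the window against the distance of its start from the start of Fam205a2 in Mb, for Irp1-/- and for Irp2-/- against WT, with Fam205a2, Gm20878 and Gm21586 in red. In Irp1-/- testes the 7 tested genes between Ccl27a and Fam205a1 lie at -0.31 to -2.83 and the others at -0.19 to 0.45.

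On chromosome 4 as a whole, 26 of 1015 tested genes (2.56%) were called in Irp1-/- against WT, the 3 genes included, and 0.921% of the genes elsewhere. In Irp2-/- against WT the shares were 1.75% and 1.18%. In these mice the loss of Aco1 and any difference in the DNA linked to the targeted allele cannot be told apart.

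Of the 7 other Fam205 and Spata31 rows edgeR with all samples of a comparison called 0 in Irp1-/- against WT, in Irp2-/- against WT and in Irp1-/- against Irp2-/-, where 1.02%, 1.21% and 4.69% of all genes were called. An unadjusted p under 0.05 was found for 1, 2 and 3 of the 7, and for 1941 of 16002, 1522 of 16154 and 2661 of 16281 genes in all, so few calls among 7 rows say little of the family. DESeq2 called 0, 1 (Spata31d1d, in Irp2-/-) and 1 (Fam205c). In Irp1-/- against Irp2-/- edgeR also called Fam205c in the fit of all 11 samples and without Irp2-/- replicate 1, and Spata31 with the replicate block, without Irp1-/- replicate 7 and without Irp2-/- replicate 3. In Irp1-/- against WT the log2 fold changes of these 7 rows ran from -0.05 to 0.13 with a median of 0.04. Fam205c, which lies beside Fam205a1 and shares 0 of its 1941 stretches of 50 bases with any other gene, had 354.2 to 362.7 CPM in WT, 352.2 to 387.0 CPM in Irp1-/- and 314.3 to 349.8 CPM in Irp2-/- testes. It overlaps Phf24 on the other strand. Spata31, on chromosome 13, had 289.3 ± 21.7 CPM (SD, n = 4) in WT and 315.4 ± 23.2 CPM (SD, n = 4) in Irp1-/- testes (log2 fold change 0.13, adjusted p = 0.366, edgeR). Spata31d1d had a log2 fold change of 0.16 in Irp2-/- against WT testes (adjusted p = 0.069, edgeR).

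**Figure D5:**
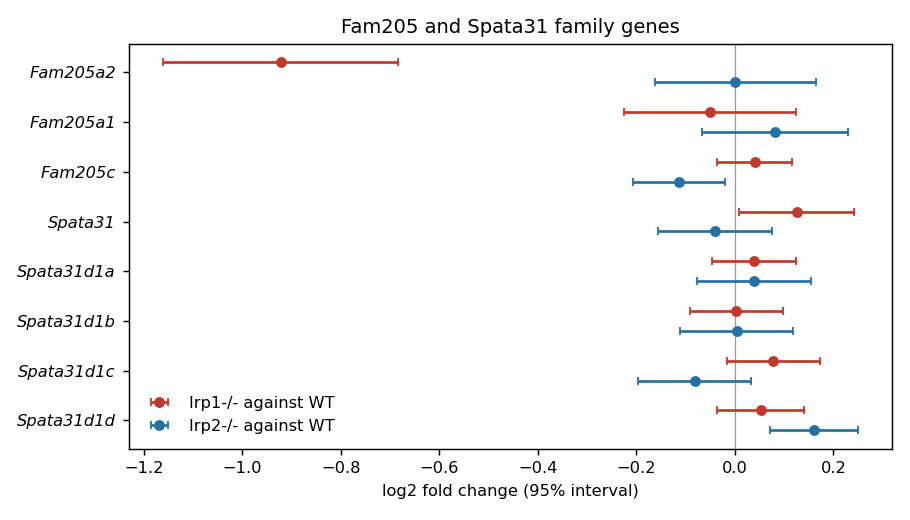
Log2 fold change with its 95% interval for Fam205 and Spata31 family genes in Irp1-/- and Irp2-/- testes, each against WT. Fam205a2 in Irp1-/- testes lies at -0.92, while the other 7 genes in those testes lie between -0.05 and 0.13.

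The genes outside the window whose log2 CPM followed the mean of the 3 genes most closely over the 11 samples were ranked by Pearson correlation among 15897 tested genes. Samples of 1 genotype are not independent points, and the 3 genes were themselves chosen on 8 of these samples, so the values are a description. The 5 with the highest values were Tbc1d2 (r = 0.993), Tmem181b-ps (r = 0.967), Dynlt1b (r = 0.962), 4930412C18Rik (r = 0.962) and 4933409K07Rik (r = 0.961). Tbc1d2, a GTPase-activating protein whose gene starts 4.07 Mb beyond Fam205a2 on chromosome 4, had 20.5 to 26.1 CPM in WT, 4.34 to 4.76 CPM in Irp1-/- and 20.0 to 23.3 CPM in Irp2-/- testes. 4933409K07Rik, also on chromosome 4, had 75.0 to 86.0 CPM in WT, 47.0 to 54.7 CPM in Irp1-/- and 71.5 to 88.3 CPM in Irp2-/- testes, close in proportion to the predicted genes. The 5 with the lowest values were Zfp462 (r = -0.968), Tcte3 (r = -0.964), Dnajc25 (r = -0.935), Ints8 (r = -0.927) and Gm5800 (r = -0.926). Zfp462, a zinc finger gene on chromosome 4, had 15.9 to 17.3 CPM in WT and 27.3 to 31.3 CPM in Irp1-/- testes. Of these 10 genes 6 lay on chromosome 4 and 3 on chromosome 17, while 6.17% of the genes compared lay on chromosome 4. The share of chromosome 17 was not computed. Dynlt1b (chr17:6429530-6440500) and Tmem181b-ps (chr17:6439002-6450994) overlap in position, so they may not be separate measurements. Among the 3 genes themselves, r was 0.979 for Gm20878 with Gm21586, 0.902 for Fam205a2 with Gm20878 and 0.858 for Fam205a2 with Gm21586 (11 samples).

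The summed levels of some cell type markers did not overlap between Irp1-/- and WT testes. The summed level of the 7 spermatocyte markers was 1276 to 1312 CPM in WT, 1211 to 1246 CPM in Irp1-/- and 1228 to 1328 CPM in Irp2-/- testes. Irp1-/- lay below WT without overlap, as did 3.42% of the 16002 single genes tested. The median log2 fold change of these 7 markers was -0.08. Round spermatid markers summed to 1135 to 1197 CPM in WT and 1152 to 1233 CPM in Irp1-/- testes. The 7 Sertoli cell markers summed to 964.1 to 1041 CPM in WT, 1076 to 1207 CPM in Irp1-/- and 967.1 to 1106 CPM in Irp2-/- testes. In Irp1-/- against WT edgeR called 1 of them, Clu (log2 fold change 0.16, adjusted p = 0.0473). Of all genes tested in that comparison 1.02% were called. The 4 haemoglobin genes summed to 15.2 to 20.0 CPM in WT, 21.2 to 38.3 CPM in Irp1-/- and 8.42 to 22.5 CPM in Irp2-/- testes, and 1 of the 4 had 0 counts throughout. The 6 Leydig cell markers summed to 683.3 to 966.2 CPM in WT and to 917.2 to 1117 CPM in Irp1-/- testes, and 4 macrophage markers to 40.7 to 47.5 and 47.3 to 49.8 CPM. In Irp1-/- against Irp2-/- testes edgeR called 2 Sertoli cell markers, Amh (log2 fold change 0.86, adjusted p = 0.0366) and Rhox5 (0.36, adjusted p = 0.0394), and 2 Leydig cell markers, Hsd3b1 (0.68, adjusted p = 0.0170) and Insl3 (0.27, adjusted p = 0.0425), all higher. Of all genes tested there 4.69% were called, so few calls in short lists say little. No marker of the other lists was called in these comparisons. Spermatogonia, elongating spermatid and peritubular myoid lists overlapped between these genotypes. The part of these shifts in the levels of Fam205a2, Gm20878 and Gm21586 was not tested.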

How the data were processed

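Polyadenylated RNA of whole testes was sequenced as stranded paired-end reads of 50 bases. The authors deposited raw counts per gene, which came out of nf-core's rnaseq workflow on mm10 with its iGenomes annotation. The paper gives the version of this workflow and reports default settings for the run. Which program did the counting is spelled out neither there nor by the submitters, so the counts may be rounded estimates. How reads that fit several copies were treated is likewise not stated. What the defaults of that version do with such reads was not examined. The submitters' notes name bcl2fastq 2.20.0.422 and DESeq2. Symbols were placed with RefSeq (GRCm38.p6) and GENCODE vM21, where 23191 of 24411 rows matched by current symbol, 438 by GENCODE name and 686 by an older symbol, 87 found no match and 9 had several; sequence comparisons used GENCODE transcripts, which differ from the annotation of the counts.

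Each comparison was fitted with the 2 genotypes concerned in R 4.3.3 with edgeR 4.0.16 (TMM, filterByExpr, robust quasi-likelihood test, Benjamini-Hochberg adjustment over all genes tested). Called means an adjusted p under 0.05. CPM were TMM-normalised over the 11 samples, and correlations were taken on log2 CPM (prior count 2). Standard errors are the log2 fold change over the root of F. Total counts were 15902473 to 22451417 per sample. Alternatives were RLE normalisation, no filter, at least 10 counts in every sample, DESeq2 1.42.0, 1 fit of all samples, a replicate block, each replicate left out, summed copies and a prior count of 0.5. The sums of Ccl27b with Gm13306, of Il11ra2 with Gm13305 and of Gm20878 with Gm21586, with each replicate left out, were added after seeing the data. Named genes were the 3 genes, Aco1 and Ireb2, other Fam205 and Spata31 rows, rows of the chromosome 4 window (from 1110017D15Rik to Unc13b, set by position) that are Ccl27, Ccl21, Ccl19 or Il11ra genes, predicted copies of at least 1 CPM or called, the 5 most and 5 least alike genes outside it, and marker lists. Gm13304, Gm13308, Gm21541, Ccl21d, Fam205a3, Fam205a4, Gm21953, Clu, Amh, Rhox5, Hsd3b1 and Insl3, outside this rule, were named after values were seen. The members and lists were chosen with earlier results of these data known. Fits were tested on simulated data. An unexplained letter in the labels (L, or R in Irp1-/- replicate 6) was not used.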

Additional observations from a re-analysis of the deposited data

Results flagged for a closer look

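Levels were examined for Fam205a2, Gm20878, Gm21586, Aco1, Ireb2, the other Fam205 and Spata31 rows and window rows of at least 1 CPM. The sums of Ccl27b with Gm13306 and of Il11ra2 with Gm13305 were also examined. In 5 of the 78 groups of 4 samples (WT and Irp1-/-) 1 sample lay far from the other 3, where chance alone gives about 1 in 20, or 3.90. Gm20878 in Irp1-/- replicate 1 had 23.1 CPM, below the 25.2 to 25.5 CPM of the other Irp1-/- samples. The sum of Ccl27b with Gm13306 in Irp1-/- replicate 6 was 10.9 CPM, above the 1.66 to 2.14 CPM of the others. Il11ra1 in Irp1-/- replicate 7 had 8.11 CPM, above 6.44 to 6.65 CPM, and Phf24 in the same sample had 0.943 CPM, below 1.20 to 1.21 CPM. Fancg in WT replicate 1 had 46.1 CPM, below 48.6 to 48.9 CPM.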

How the results depend on the processing

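In Irp1-/- against WT and against Irp2-/-, each of the 3 genes stayed lower under all alternatives run on single rows, with log2 fold changes between -0.99 and -0.83 (Fam205a2), -0.75 and -0.67 (Gm20878) and -0.91 and -0.73 (Gm21586) against WT. In Irp2-/- against WT their adjusted p lay between 0.36 and 0.9997 over the alternatives fitted on single rows (edgeR or DESeq2); the summed rows were not tested. The value of Fam205a2 there, near 0, changed sign to -0.0043 with RLE, -0.0012 with at least 10 counts in every sample and -0.0042 with DESeq2. It was -0.0022 in a fit of all samples, -0.0011 without Irp2-/- replicate 2 and -0.11 without Irp2-/- replicate 3 (0.10 without replicate 1). Without WT replicates 2 and 4 it was -0.0029 and -0.031. The 3 genes summed into 1 row gave -0.026, and with Fam205a1 also summed the row gave 0.0017. Both are values of the summed row and not of a single gene. The sum of Ccl27b with Gm13306 turned to -0.042 in Irp2-/- without replicate 1 and was 0.29 without replicate 3. The cause was not tested.

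The count of all genes called in Irp1-/- against WT, 164, was 55 to 216 with 1 sample left out (55 without Irp1-/- replicate 1, 84 without WT replicate 2, 102 without Irp1-/- replicate 6, 106 without WT replicate 4). In Irp2-/- against WT, 196 became 118 to 223 (118 without Irp2-/- replicate 2), and in Irp1-/- against Irp2-/-, 763 became 414 to 763 (414 without Irp2-/- replicate 2, 471 without Irp1-/- replicate 1). Other window rows called in Irp1-/- against WT numbered 0 to 1 with a sample left out, 1 without the filter (Ccl21b) and 1 with DESeq2 (Gm13305); Ccl21b was the row called without Irp1-/- replicate 1, 2, 6 or 7 or WT replicate 1, and Gm13305 without WT replicate 2. In Irp2-/- against WT they numbered 0 to 1 (Gm13308, without Irp2-/- replicate 3), and in Irp1-/- against Irp2-/- 2 to 4, with Fam205c and Ccl27a added without Irp2-/- replicate 1, and with Gm13308 in place of Fam219aos without Irp2-/- replicate 3. The genes most alike were the same 10 with a prior count of 0.5.

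The deviations of same-numbered samples from their group means were hardly correlated (r from -0.0099 to 0.078). Samples with different numbers were not compared in this way, so whether the numbers pair the mice is not known. With the replicate block, 439 genes were called in Irp1-/- against WT, 1 of the other window rows was called there (Gm3893) and 1 in Irp1-/- against Irp2-/- (Gm13305), Gm21586 moved to -0.91 and Fam205a2 in Irp2-/- to -0.038. Irp1-/- and WT share only replicate numbers 1 and 2, as do Irp1-/- and Irp2-/-, so those fits compare genotypes through these replicates alone. Depth limits Ccl21b, Ccl21a and Ccl19, which had at most 20 counts in any sample.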
